A study of Mus musculus with 24 samples.

Results

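Cited2, Ggct, Bmp2k and Il13ra2 are genes whose signal was high in the wild-type mouse uterus 4 h after a single progesterone (P4) injection and not in the uterus of progesterone receptor knockout (PRKO) mice. They were chosen by their measured P4 changes, namely that rise, its absence in PRKO uteri and its fading by 40 h. Each had 1 probe set that named no other gene, so they were 4 of 12422 probe sets tested and 4 of 8251 genes named. The P4 effects described for them below are therefore descriptions of the choice and carry no test.

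The arrays were Affymetrix mouse arrays in 8 groups of 3, 24 in all. Wild-type or PRKO mice were ovariectomized at 6 weeks of age and, after a pause of 2 weeks, received the sesame oil vehicle or 1 mg P4 per mouse in that oil. Uteri were collected 4 h after the only injection, or 4 h after the last of 4 injections 12 h apart, which is the 40 h group. All groups therefore lacked ovaries. Each pool held RNA from 5 mice. Whether a group's 3 arrays carried different pools is not stated, so every error and p-value below measures the spread between arrays and may be technical. No label names the strain or the allele behind the knockout.

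The progesterone receptor is a transcription factor that binds DNA once progesterone has bound it, and in the uterus it prepares the endometrium for implantation and restrains estrogen-driven growth of the epithelium. Cited2 encodes a co-regulator without DNA binding of its own, which binds the acetyltransferases CBP and p300, competes there with hypoxia-inducible factors and serves as a coactivator for TFAP2 factors. Ggct encodes gamma-glutamylcyclotransferase, which turns gamma-glutamyl amino acids of the glutathione cycle into 5-oxoproline. Bmp2k encodes a kinase of the Numb-associated family, first named for its induction by bone morphogenetic protein and active at clathrin-coated vesicles, and Il13ra2 encodes a receptor that binds interleukin-13 tightly and, with its short cytoplasmic tail, acts as a decoy.

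Sequences just upstream of the 4 start sites are shown because the 4 genes were picked for one shared response. All 4 genes matched the RefSeq promoter table (build GRCm38.p6), and the 250 bases before each annotated start are given 5′ to 3′ on the strand of the gene. They lie at chr10:17722978-17723227 (+ strand) for Cited2, chr6:54992868-54993117 (− strand) for Ggct, chr5:96997439-96997688 (+ strand) for Bmp2k and chrX:147429193-147429442 (− strand) for Il13ra2. Capitals mark matches, on either strand, to the motifs named after the sequences.
Cited2: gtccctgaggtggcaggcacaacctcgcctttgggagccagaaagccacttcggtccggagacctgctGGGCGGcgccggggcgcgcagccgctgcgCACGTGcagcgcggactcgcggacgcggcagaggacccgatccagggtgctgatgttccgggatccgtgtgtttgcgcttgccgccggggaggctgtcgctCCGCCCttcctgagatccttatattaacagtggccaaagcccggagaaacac
Ggct: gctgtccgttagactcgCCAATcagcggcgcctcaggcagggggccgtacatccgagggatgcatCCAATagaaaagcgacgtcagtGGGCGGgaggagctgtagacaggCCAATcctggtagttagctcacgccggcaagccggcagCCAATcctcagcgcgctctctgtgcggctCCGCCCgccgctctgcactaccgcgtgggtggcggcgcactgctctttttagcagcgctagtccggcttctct
Bmp2k: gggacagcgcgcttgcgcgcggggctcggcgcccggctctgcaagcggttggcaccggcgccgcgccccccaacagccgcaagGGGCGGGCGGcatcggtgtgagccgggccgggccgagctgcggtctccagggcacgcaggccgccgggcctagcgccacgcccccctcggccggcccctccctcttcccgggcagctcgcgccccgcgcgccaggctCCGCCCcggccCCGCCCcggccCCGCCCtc
Il13ra2: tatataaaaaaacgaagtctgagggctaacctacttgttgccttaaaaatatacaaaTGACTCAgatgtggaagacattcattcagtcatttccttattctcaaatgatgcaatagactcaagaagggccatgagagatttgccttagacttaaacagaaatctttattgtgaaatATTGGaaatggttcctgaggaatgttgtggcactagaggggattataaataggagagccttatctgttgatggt

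Each of these motifs was searched on both strands, and the share of all 32851 windows of the same length in the table is given with it. The palindrome bound by progesterone and glucocorticoid receptors, GNACA and TGTNC with 3 bases of any kind between them, matched none of the 4 windows and 0.387% of all windows. The receptor half-site TGTTCT also matched none of the 4, against 16.1% of all. No match says only that these letters are not in this window. The GC box GGGCGG, found in 32.7% of all windows, matched 5 times in Bmp2k, where 2 matches overlap, 2 times in Cited2 and 2 times in Ggct. The CCAAT box CCAAT, found in 33.8%, matched 4 times in Ggct and 1 time in Il13ra2. The AP-1 letters TGACTCA, found in 4.46%, matched 1 time, in Il13ra2. The letters ACGTG, searched as a hypoxia response core and found in 16.6%, matched Cited2 at 1 place, on both strands with overlap. The letters there read CACGTG, the same on both strands. Other letter forms of that core were not searched, so this match does not set Cited2 apart.

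The windows differed in base composition. GC content was 66.8% for Cited2, 64% for Ggct and 83.2% for Bmp2k, with 26, 24 and 39 CpG pairs, above the median of 52.4% and 6 pairs over all windows. The Il13ra2 window had 36% GC and 1 CpG pair, at percentile 5.81 of all windows for GC. None of the motifs searched was found in all 4 windows.

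Signals below are deposited intensities after each array was scaled to a common trimmed mean, and a log2 change is the difference of group means of log2(signal + 32), which understates the change of dim genes. Among the mean signals of all probe sets, Cited2 stood at percentile 82.7, Ggct at 27.3, Bmp2k at 25.6 and Il13ra2 at 12.3, and signals of different probe sets were not compared with each other. The targeted gene Pgr was dim, at percentile 22.4, and its mean was lower in PRKO than in wild type in all 4 matched pairs of groups, from 115.4 ± 3.78 against 120.7 ± 18.3 (SD, n = 3) after P4 at 4 h to 116.2 ± 8.88 against 156.3 ± 12.5 after P4 at 40 h. Whether its probes fall inside the stretch altered in the knockout is not known here, so how far it checks the genotype labels is not settled. The signal ratio of the 3' to the 5' Gapdh control, a sign of RNA quality, was 3.67 in wild-type vehicle replicate 2 and 3.25 in wild-type P4 replicate 2 at 4 h, against 1.23 to 1.86 on the other arrays. The same ratio of the actin control did not set these arrays apart, at 1.42 and 1.30. Over all arrays it ran from 1.11 to 1.96, and was highest in wild-type vehicle replicate 1 at 4 h. Values without both arrays of high Gapdh ratio are given with the wild-type P4 change and the genotype difference at 4 h.

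Markers of uterine compartments gave a signal in every group. The lowest group mean of any smooth muscle marker, such as Myh11 or Acta2, was 1447, that of any epithelial marker 167 and that of any stromal marker 149. Without detection calls, a signal above 0 does not show that the dimmest of these markers were above background. In bulk tissue, fewer cells of a type and less RNA per cell cannot be told apart.

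**Figure D1:**
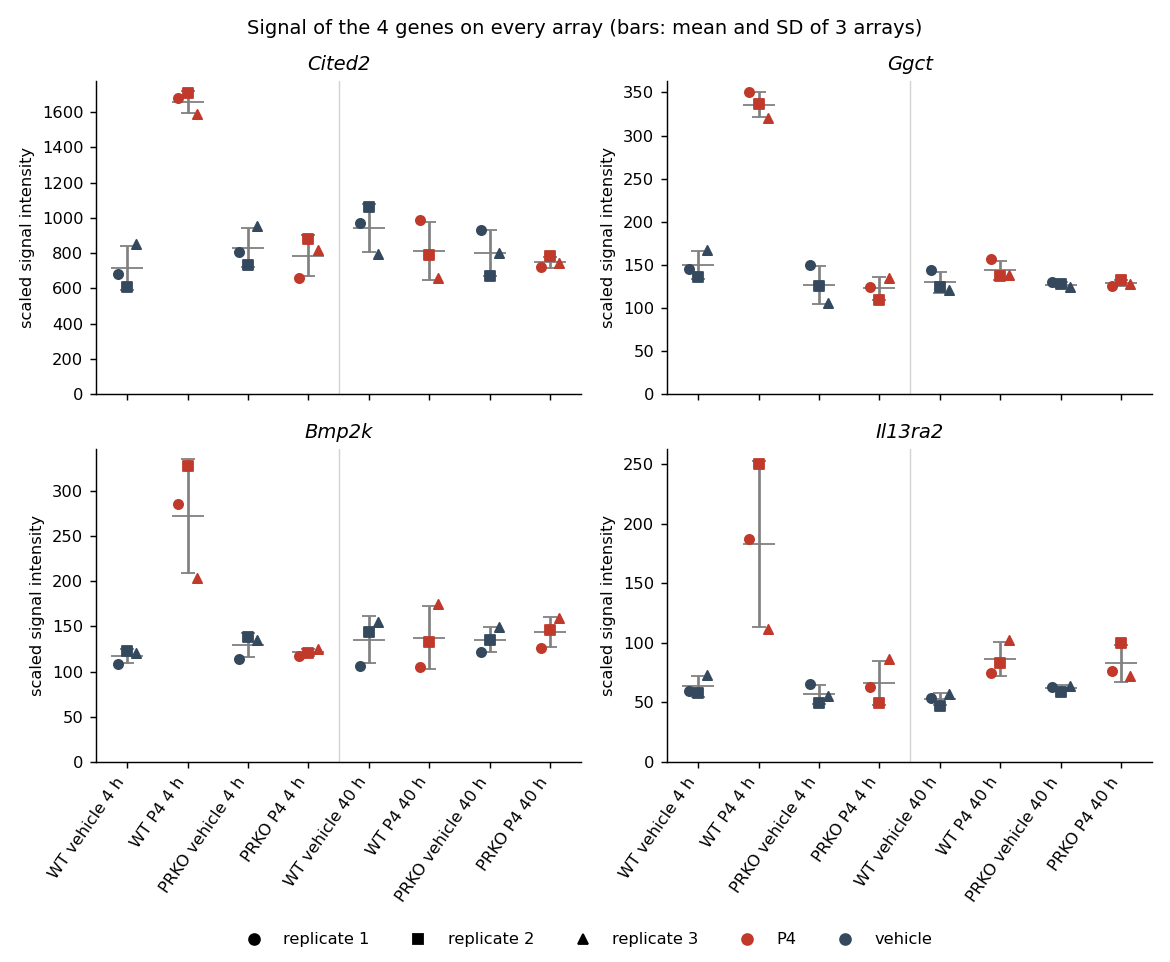
Scaled signal intensity (linear axis from 0) of Cited2, Ggct, Bmp2k and Il13ra2 on each of 24 arrays in 8 groups of 3, where grey bars give the mean and SD and the point shape gives the replicate number. The 3 wild-type P4 arrays at 4 h lie above every other array in all 4 panels, and P4 replicate 3 is the lowest of them each time.

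Cited2 responded in wild-type uteri at 4 h with little scatter after P4. Its signal was 681.9, 609 and 850.4 on the vehicle arrays and 1676, 1707 and 1589 on the P4 arrays. All P4 arrays stood above all vehicle arrays, as in 3.65% of all probe sets in that comparison, with a log2 change of 1.19 ± 0.15 (SE, 3 arrays against 3), or 2.28-fold. In PRKO uteri at 4 h the signal was 806.6, 734.2 and 951.8 after vehicle and 657, 881.9 and 819 after P4, and the groups overlapped (−0.08 ± 0.15). At 40 h the wild-type signal was 972.1, 1060 and 793.7 after vehicle and 990, 786.9 and 661.8 after P4. These groups overlapped too, with the P4 mean on the lower side (−0.21 ± 0.15). The PRKO arrays at 40 h read 930.2, 670.4 and 801.4 after vehicle and 719.3, 781.3 and 743.6 after P4, again with overlap (−0.08 ± 0.15).

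Ordered by group mean, Cited2 stood at 1657 ± 61.2 (SD, n = 3) in wild-type P4 uteri at 4 h and next at 942 ± 136 in wild-type vehicle uteri at 40 h. PRKO vehicle at 4 h (830.8 ± 111), wild-type P4 at 40 h (812.9 ± 166), PRKO vehicle at 40 h (800.7 ± 130), PRKO P4 at 4 h (786 ± 116), PRKO P4 at 40 h (748.1 ± 31.2) and wild-type vehicle at 4 h (713.8 ± 124) followed. Neighbours in this order below the first overlapped in their arrays. The P4 mean of wild-type uteri was 2.04 times as high at 4 h as at 40 h, while the vehicle mean was lower at 4 h than at 40 h.

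Ggct showed the tightest rise. Its wild-type signal at 4 h was 145, 136.2 and 167.6 after vehicle and 350.4, 337 and 320.6 after P4. The gap between the groups was far wider than the spread within either, and the log2 change was 1.02 ± 0.09, or 2.03-fold. The PRKO arrays at 4 h read 149.5, 125.2 and 105.9 after vehicle and 124.4, 109 and 135.3 after P4. No shift was visible between these overlapping groups (−0.03 ± 0.09). At 40 h the wild-type arrays read 143.7, 124.6 and 121.3 after vehicle and 156.8, 137 and 138.2 after P4, overlapping at a log2 change of 0.12 ± 0.09. The PRKO arrays at 40 h lay between 124.2 and 132.2 in both treatments (0.01 ± 0.09).

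In order of group means, Ggct stood at 336 ± 15 (SD, n = 3) in wild-type P4 uteri at 4 h, then at 149.6 ± 16.2 in wild-type vehicle at 4 h and 144 ± 11.1 in wild-type P4 at 40 h. The remaining groups ran from 129.9 ± 12.1 in wild-type vehicle at 40 h to 122.9 ± 13.2 in PRKO P4 at 4 h. Every neighbouring pair below the first overlapped in its arrays.

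Bmp2k rose by a like amount with more scatter among the P4 arrays. Its wild-type signal at 4 h was 108.9, 122.3 and 121 after vehicle and 285.1, 327.1 and 202.9 after P4. The lowest P4 array still exceeded the highest vehicle array, and the log2 change was 1.00 ± 0.14, or 2.00-fold. The PRKO arrays at 4 h read 113.8, 138.5 and 135.2 after vehicle and 117.2, 121 and 125.4 after P4, with overlap (−0.07 ± 0.14). At 40 h the wild-type arrays read 105.8, 144.1 and 155.3 after vehicle and 105.3, 133.1 and 174.2 after P4. Treatment made no visible difference there (0.01 ± 0.14), whereas arrays of the same replicate number stood close to each other. The PRKO arrays at 40 h read 121.7, 134.4 and 149.8 after vehicle and 125.6, 145.8 and 158.9 after P4 (0.07 ± 0.14).

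By group mean Bmp2k stood at 271.7 ± 63.2 (SD, n = 3) in wild-type P4 uteri at 4 h. The other groups ran from 143.5 ± 16.8 in PRKO P4 at 40 h down to 117.4 ± 7.38 in wild-type vehicle at 4 h, and neighbours in that order overlapped. The wild-type P4 mean was 1.98 times as high at 4 h as at 40 h.

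Il13ra2 departed in part from the description under which it was chosen. Its wild-type signal at 4 h was 59.3, 57.6 and 73.5 after vehicle and 187.7, 250.6 and 111.5 after P4. These arrays did not overlap, but the 3 P4 arrays were widely spread, and the log2 change of 1.12 ± 0.17 (2.18-fold) fell to 0.86 ± 0.18 without both arrays of high Gapdh ratio. At 40 h the wild-type arrays read 53.4, 47.2 and 57.4 after vehicle and 75, 82.7 and 102.4 after P4. All 3 P4 arrays again lay above all 3 vehicle arrays, at a log2 change of 0.48 ± 0.17, so 43.1% of the log2 change at 4 h was still seen at 40 h. All 3 P4 arrays lay above all 3 vehicle arrays in 9.76% of all probe sets at 40 h in wild type, and the contrast is one on which the gene was chosen, so nothing is read from it.

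In PRKO uteri the Il13ra2 signal at 4 h was 65.3, 49.3 and 55.8 after vehicle and 63, 49.8 and 86.4 after P4, with overlap (0.13 ± 0.17). At 40 h it was 62.9, 59.2 and 64 after vehicle and 76.2, 100.2 and 72 after P4. There too the P4 arrays all lay above the vehicle arrays (0.28 ± 0.17), as they did in 5.88% of all probe sets in that comparison. The wild-type change exceeded the PRKO change by 0.99 ± 0.24 at 4 h and by 0.20 ± 0.24 at 40 h.

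By group mean Il13ra2 stood at 183.3 ± 69.6 (SD, n = 3) in wild-type P4 uteri at 4 h, then at 86.7 ± 14.1 in wild-type P4 and 82.8 ± 15.3 in PRKO P4 uteri at 40 h. The remaining groups ran from 66.4 ± 18.5 in PRKO P4 at 4 h to 52.6 ± 5.14 in wild-type vehicle at 40 h, with overlap between neighbours. The lowest wild-type P4 array at 4 h, at 111.5, stood only just above the highest array of any other group, at 102.4.

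The other 3 genes kept less of their change at 40 h. Of the log2 change at 4 h in wild type, Ggct kept 11.9% and Bmp2k 1.36%, and the Cited2 change had turned to the other sign, at −17.9%. The 4 h change exceeded the 40 h change in wild type by 1.41 ± 0.21 for Cited2, 0.90 ± 0.13 for Ggct, 0.99 ± 0.20 for Bmp2k and 0.64 ± 0.24 for Il13ra2. The same difference in PRKO uteri lay between −0.15 and 0.00 for the 4 genes. The wild-type change at 4 h exceeded the PRKO change by 1.27 ± 0.21 for Cited2, 1.05 ± 0.13 for Ggct and 1.07 ± 0.20 for Bmp2k. These differences share arrays with each other and describe the choice of the genes.

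**Figure D2:**
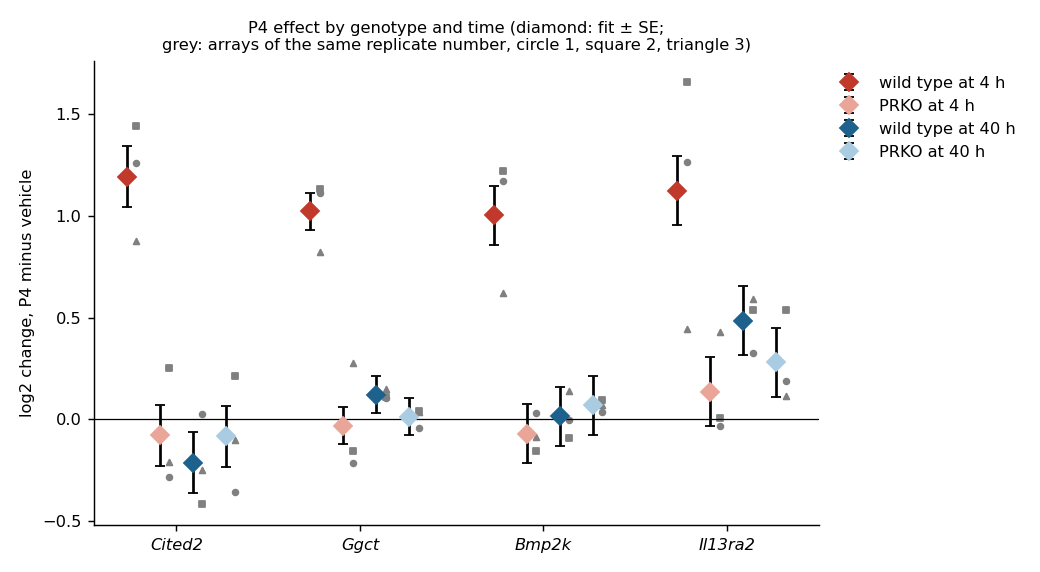
Log2 change, P4 minus vehicle, of each gene in both genotypes at both times, where diamonds give the fitted change with its SE (3 arrays against 3) and grey points the difference between arrays of the same replicate number. The wild-type changes at 4 h lie between 1.00 and 1.19, while at 40 h Il13ra2, at 0.48 in wild type and 0.28 in PRKO, stands above the other 3 genes.

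All 4 genes counted among the 65 probe sets higher after P4 in wild type at 4 h (limma, adjusted p under 0.05), where the share called in either direction was 0.708% and the share called higher 0.523%. By size of increase on the log2(signal + 32) scale they ranked 2 for Cited2, 5 for Il13ra2, 11 for Ggct and 12 for Bmp2k among all probe sets. The order depends on the offset, since with 16 in place of 32 the change was 1.27 for Il13ra2 and 1.21 for Cited2, and no detection call shows whether the dim Il13ra2 vehicle signals were above background. In 0.66% of all probe sets did the 3 wild-type P4 arrays at 4 h lie above all other 21 arrays, and the 4 genes were among these. The rule used these values, so nothing is read from the counts. Of the 65 probe sets that rose, 8 were also called higher at 40 h in wild type and 2 were called lower, and the median of them kept 3.61% of its log2 change. Of the 65, 45 kept under 25% of it.

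Replicate 3 gave the smallest change of all 4 genes in wild type at 4 h. Between arrays of the same number, the log2 difference was 1.26, 1.44 and 0.88 for Cited2 in replicates 1, 2 and 3, and 1.11, 1.13 and 0.82 for Ggct. It was 1.17, 1.22 and 0.62 for Bmp2k and 1.27, 1.66 and 0.44 for Il13ra2. Replicate 2, which holds both arrays of high Gapdh ratio, gave the largest difference each time, and the part of RNA quality in these values was not tested. Without these arrays the change was 1.07 ± 0.18 for Cited2, 0.97 ± 0.11 for Ggct and 0.89 ± 0.17 for Bmp2k. For no gene did leaving out a single array bring the 4 h change in wild type below 0.87.

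Epithelial markers were lower in sum after P4 on the same 4 h wild-type arrays, and the sum itself was not tested. The summed signal of 8 epithelial markers ran from 5038 to 5563 after P4 and from 6010 to 6927 after vehicle, although none of the 8 passed. None of 8 leukocyte markers passed either, and their summed signal ranges overlapped (2858 to 3325 after P4, 2793 to 3883 after vehicle). At 40 h in wild type, 5 of 7 adipocyte markers fell, with a summed signal of 5823 to 10114 after P4 and 14063 to 16113 after vehicle, 3 of 8 stromal markers rose (26175 to 29222 against 19280 to 23855), and 1 epithelial and 1 endothelial marker fell. None of 7 smooth muscle markers passed there, but their summed signal ran from 30896 to 33303 after P4 and from 26414 to 28213 after vehicle, with a median log2 change of 0.35. In PRKO uteri at 40 h no adipocyte, stromal or smooth muscle marker passed, but these 3 sums shifted the same way without overlap. Adipocyte sums ran from 12491 to 14695 after P4 and from 15238 to 17473 after vehicle. Stromal sums ran from 21900 to 24496 against 20981 to 21865, and smooth muscle sums from 26694 to 27948 against 25336 to 25651. Epithelial sums did not move alike in both genotypes at 40 h. In wild type they ran from 5540 to 5946 after P4 and from 6542 to 7077 after vehicle. In PRKO they overlapped, with the P4 mean on the higher side (6459 to 6736 against 5713 to 6548). The part of these shifts in the values of the 4 genes was not tested.

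The vehicle arrays allow comparisons that the choice of genes did not name, but their values are one side of the P4 changes that it used. Choosing a large rise at 4 h that fades favours low wild-type vehicle signal at 4 h and high signal at 40 h. The p-values below are therefore not independent of the choice. The first question was whether the genes differed between genotypes without P4. At 4 h, PRKO minus wild type was 0.22 ± 0.15 for Cited2, −0.20 ± 0.09 for Ggct, 0.11 ± 0.14 for Bmp2k and −0.10 ± 0.17 for Il13ra2. None of the 4 passed (limma with Benjamini-Hochberg adjustment, adjusted p = 0.965 for Ggct and 1 for the others), where 0.185% of all probe sets did. Ggct had an unadjusted p of 0.0407 by limma, with the PRKO mean below the wild-type mean and overlapping arrays. The 95% interval of its difference was −0.39 to −0.01, the end nearest to 0 being close to no difference. With single arrays left out, the difference ran from −0.30 to −0.10 for Ggct, without PRKO replicate 1 and 3, and from 0.11 to 0.34 for Cited2, without wild-type replicate 2 and 3. Without both arrays of high Gapdh ratio it was 0.11 ± 0.17 for Cited2, −0.25 ± 0.10 for Ggct, 0.13 ± 0.15 for Bmp2k and −0.15 ± 0.16 for Il13ra2, and none passed by limma (adjusted p of 0.371 to 0.829).

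At 40 h the same difference was −0.23 ± 0.15 for Cited2, −0.02 ± 0.09 for Ggct, 0.01 ± 0.14 for Bmp2k and 0.15 ± 0.17 for Il13ra2. Again none of the 4 passed by limma (adjusted p = 1 for each), where 0.0644% of all probe sets did. The Il13ra2 vehicle arrays of PRKO uteri all lay above those of wild-type uteri, as in 3.96% of all probe sets. The intervals at 40 h were −0.54 to 0.08 for Cited2, −0.21 to 0.17 for Ggct, −0.29 to 0.31 for Bmp2k and −0.20 to 0.51 for Il13ra2, so differences of up to these sizes were not resolved.

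The second question was whether the level in vehicle uteri itself moved between 4 h and 40 h. In wild type, 40 h minus 4 h was 0.39 ± 0.15 for Cited2 (95% interval 0.08 to 0.70), with an unadjusted p of 0.0172 and an adjusted p of 0.218 by limma, where 0.29% of all probe sets passed. The choice of genes favours a difference in this direction, so nothing is read from the Cited2 value. The time difference was −0.16 ± 0.09 for Ggct, 0.15 ± 0.14 for Bmp2k and −0.17 ± 0.17 for Il13ra2, with adjusted p of 0.404, 0.662 and 0.67 by limma. The Il13ra2 arrays at 40 h all lay below those at 4 h, as in 4.79% of all probe sets. In PRKO vehicle uteri the values were −0.06 ± 0.15, 0.01 ± 0.09, 0.05 ± 0.14 and 0.09 ± 0.17 in the same order, none of which passed, and 0% of all probe sets did by limma (1375 had an unadjusted p under 0.05). The 4 h and 40 h arrays differ in time and in injections of oil, and any difference between the runs of arrays cannot be told apart from these.

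The genotype difference in vehicle uteri moved from 4 h to 40 h by −0.44 ± 0.21 for Cited2, which did not pass (limma, unadjusted p = 0.049, adjusted p = 1). For the other 3 genes this movement lay between −0.10 and 0.26 and did not pass. The Cited2 movement, too, lies in the direction that the choice of genes favours.

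None of the nearest relatives of the 4 genes on the array passed at 4 h in wild type. Cited1, the other measured member of the CITED family, changed by 0.17 ± 0.11 (limma adjusted p = 0.974), against 1.19 for Cited2. The 3 probe sets of Aak1, the closest kinase to Bmp2k, gave 0.14, 0.15 and 0.01, and both of Stk16, another kinase of that family, gave −0.14 and −0.07. The receptor chain Il13ra1, which signals in response to interleukin-13, changed by 0.09 ± 0.10, and its partner Il4ra by −0.01 ± 0.08, with −0.07 at its other probe set. Of the enzymes that make glutathione, Gclc changed by 0.05 ± 0.08, its regulatory subunit Gclm by 0.21 ± 0.11 and Gss by 0.03 ± 0.10, with 0.24 at its other probe set. None of these probe sets passed in any of the 4 P4 comparisons. Cited1, Il13ra1 and the other Il4ra probe set were dim, at percentiles 19.6, 24.1 and 18.8 of mean signal, so changes there would be understated. The Stk16 probe set at −0.14 is of a type that can share probes with related sequences. Cited4, Gak, Il2rg, Chac1, Chac2, Ggt1 and Oplah had no probe set of their own in the annotation used here.

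**Figure D3:**
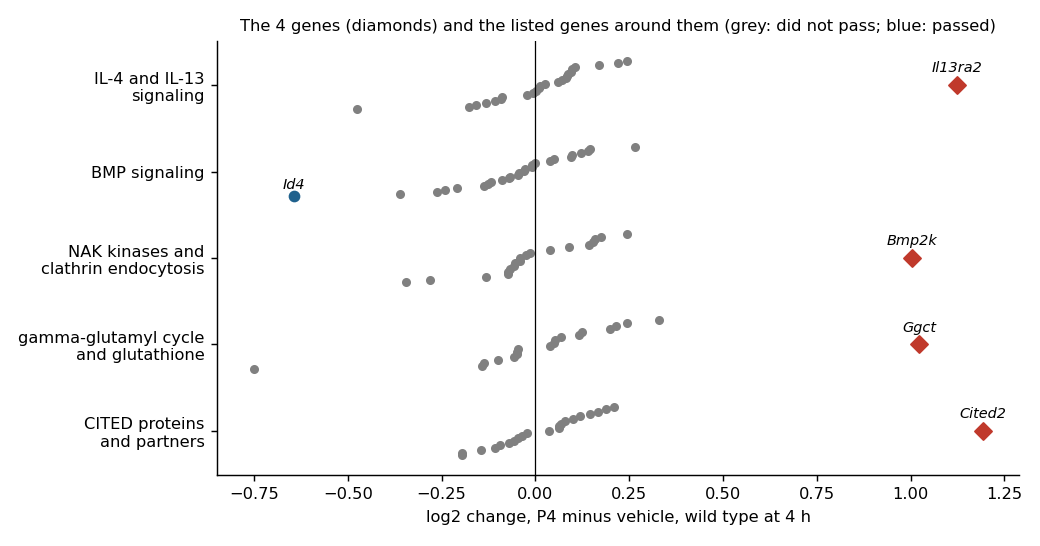
Log2 change, P4 minus vehicle, in wild-type uteri at 4 h of the 4 genes (diamonds) and of the listed genes around each of them (grey where they did not pass, blue where they did), 1 probe set per gene. The diamonds lie at 1.00 to 1.19, and the listed genes between −0.75 and 0.33.

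Of the wider lists around each gene, 1 gene in all passed at 4 h in wild type, where 0.708% of all probe sets passed and 6.23% had an unadjusted p under 0.05 by limma. Of 21 measured genes among CITED proteins, their CBP and p300 partners and the factors they act with, 0 passed by limma and 0 had an unadjusted p under 0.05. Their median log2 change was 0.04, against 0.00 over all genes, with values from −0.20 to 0.21. Of 18 genes of the gamma-glutamyl cycle and glutathione, 0 passed (1 unadjusted), with a median of 0.04. With the replicate number as a block, Anpep, an aminopeptidase that splits the dipeptide made from glutathione, fell (−0.75 ± 0.13, limma adjusted p = 0.00572). Without the block its adjusted p was 0.214 by limma, and the block rests on a pairing that no label states. Of 19 genes of Numb-associated kinases and clathrin endocytosis, 0 passed (3 unadjusted), with a median of −0.04.

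Of 24 genes of interleukin-4 and interleukin-13 signaling, 0 passed by limma (3 unadjusted), with a median of 0.02. The cytokine receptor kinase Jak2 fell with the replicate block (−0.48 ± 0.11, limma adjusted p = 0.0473) and had an adjusted p of 0.303 without it. Of 26 genes of bone morphogenetic protein signaling, 1 fell and 0 rose, with a median of −0.04. The one that fell was Id4, an inhibitor of helix-loop-helix transcription factors. Its signal was 1198 ± 233 (SD, n = 3) after vehicle and 750.9 ± 109 after P4, and its log2 change was −0.64 ± 0.13 (limma adjusted p = 0.018). That vehicle mean was the highest of all groups. PRKO uteri at 4 h stood at 838.5 ± 123 after vehicle and 764.2 ± 103 after P4. Vehicle uteri at 40 h stood at 866.7 ± 74.7 in wild type and 867.6 ± 87.8 in PRKO. After P4 at 40 h the mean was 642 ± 23.1 in wild type, the lowest of all groups, and 771.2 ± 50.4 in PRKO. The Id4 call was lost without vehicle replicate 1 or 2 or P4 replicate 1 or 2 (changes of −0.66, −0.50, −0.56 and −0.62, with adjusted p of 0.0595, 0.121, 0.158 and 0.12 by limma). It was also lost when the arrays of that time alone were fitted (adjusted p = 0.228 at the same change). Without both arrays of high Gapdh ratio its change was −0.48 ± 0.15 (adjusted p = 0.447).

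In the other P4 comparisons none of these listed genes passed by limma without a replicate block. In PRKO uteri 0% of all probe sets passed at 4 h (236 had an unadjusted p under 0.05) and 0% at 40 h (831 unadjusted). At 40 h in wild type, where 1.54% of all probe sets passed, list medians ran from −0.06 for the glutathione and bone morphogenetic protein lists to 0.04 for the clathrin list, beside 0.00 over all genes. Unadjusted, 4 genes of the CITED list, 3 of the glutathione list, 1 of the clathrin list, 7 of the bone morphogenetic protein list and 2 of the interleukin list were under 0.05 there, beside 11.7% of all probe sets.

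**Figure D4:**
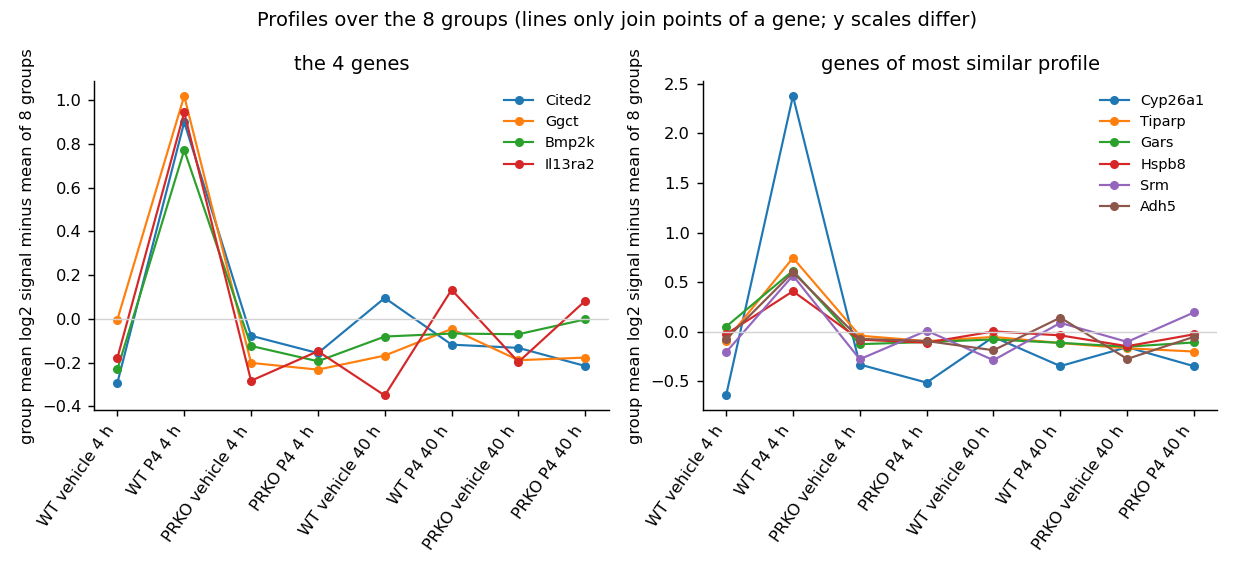
Group mean log2 signal minus the mean of the 8 groups for the 4 genes (left) and the genes of most similar profile (right), with different vertical scales and lines that only join the points of a gene. Each gene peaks in wild-type P4 uteri at 4 h. After P4 at 40 h, Il13ra2, Srm and Adh5 lie above zero in wild type, and Il13ra2 and Srm also in PRKO.

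Likeness of profile was measured as Pearson's r over the 8 group means, among 905 genes other than the one compared whose group means spanned at least 0.5 log2, and the points share arrays and one high group. Among themselves the 4 genes had r of 0.82 (Cited2 and Il13ra2) to 0.95 (Cited2 and Bmp2k). The genes most like Cited2 were Cyp26a1, which encodes a retinoic acid-degrading enzyme (r = 0.98, with a log2 change of 3.02 ± 0.16 in wild type at 4 h), the ADP-ribosyltransferase gene Tiparp (0.97) and Bmp2k (0.95). Cyp26a1 was also the most like Bmp2k (0.99), followed by Cited2 (0.95) and Ggct (0.94). Tiparp went from 509.1 ± 93 to 922.8 ± 19 (SD, n = 3) in wild type at 4 h, a log2 change of 0.83 ± 0.12, and changed by −0.06 ± 0.12 at 40 h. The genes most like Ggct were the glycyl-tRNA synthetase Gars (0.99), Tiparp (0.97) and the small heat shock protein gene Hspb8 (0.97), with changes of 0.56 ± 0.11 for Gars and 0.43 ± 0.11 for Hspb8 at 4 h.

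Il13ra2 had other companions. Its profile was most like those of the spermidine synthase Srm (r = 0.95) and the alcohol dehydrogenase Adh5 (0.95), then Bmp2k (0.93). The probe sets of Srm and Adh5 are of types that can share probes with related sequences, so their identity is less certain. Adh5 went from 1350 ± 143 to 2175 ± 256 (SD, n = 3) in wild type at 4 h, a log2 change of 0.67 ± 0.09, and changed by 0.33 ± 0.09 at 40 h. In PRKO uteri the Adh5 change was −0.02 at 4 h and 0.22 at 40 h, next to 0.13 and 0.28 for Il13ra2. Srm changed by 0.77 ± 0.25 at 4 h and 0.38 ± 0.25 at 40 h in wild type, and by 0.29 and 0.30 at these times in PRKO uteri. These genes were picked for the likeness, so their values describe it and carry no test.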

How the data were processed

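Pools of 5 mice were used, per the labels. The authors deposited linear signal intensity, and the submitters' processing notes name MAS5, with no version, settings or detection calls. Array medians were 323.2 to 342.6, and precision is limited by how many arrays there are. Each array was scaled to a 2%-trimmed mean of 500 over all its probe sets. Then 66 control probe sets were left out, 32 was added and log2 taken. Group means of all 24 arrays were fitted with limma 3.58.1 in R 4.3.3 (intensity trend, two-sided moderated tests, Benjamini-Hochberg adjustment over 12422 probe sets, threshold 0.05), after a test on simulated data. Fold values are powers of 2 of the log2 change. Probe sets took gene names from the platform annotation (10833 named 1 gene, 396 several, 1193 none; 10817 matched RefSeq by gene identifier). Lists used the brightest probe set per gene.

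The 4 genes and the lists were chosen with earlier results of these data known, and the motifs after the sequences were seen. Named besides were close relatives, the 3 most similar profiles per gene and list genes that passed. Replicate numbers carry no stated pairing. In wild type at 4 h, deviations from group means correlated between arrays of the same number by over 0.1 in every pair (0.114, 0.516 and 0.35), so the block for the number was taken as a pairing there. The value of 0.516 was between both arrays of high Gapdh ratio, and the part of RNA quality in it was not tested. The block was fitted over every group of a time, so it also covered the PRKO arrays at 4 h. Between PRKO vehicle and P4 at 4 h, replicate 3 correlated by −0.124. In each other P4 comparison and between genotypes, at least 1 pair was under 0.1. Other offsets, scalings, a filter on dim signal, fits to 1 time, the block and left-out arrays were tried.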

Additional observations from a re-analysis of the deposited data

How the results depend on the processing

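Over the alternatives tried, the change of each of the 4 genes in wild type at 4 h stayed between 0.86 and 1.39. With single arrays left out it was 1.09 to 1.32 for Cited2, 0.97 to 1.09 for Ggct, 0.87 to 1.18 for Bmp2k and 0.90 to 1.39 for Il13ra2. With an offset of 64 the Ggct change was 0.91. At 40 h in wild type, leaving out single arrays gave −0.36 to −0.08 for Cited2, 0.07 to 0.18 for Ggct, −0.14 to 0.16 for Bmp2k and 0.39 to 0.55 for Il13ra2. Il13ra2 has no value with dim probe sets left out, since its group means stayed under 200. No vehicle comparison of the 4 genes passed under any alternative run. Near zero, signs turned: Ggct in PRKO vehicle uteri over time was −0.0065 with quantile normalization, and single left-out arrays gave −0.085 to 0.11 for Ggct, −0.017 to 0.11 for Bmp2k and −0.17 to 0.061 for Cited2 there. For the genotype difference in vehicle uteri at 40 h they gave −0.059 to 0.040 for Ggct and −0.12 to 0.099 for Bmp2k.

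Counts of probe sets passing limma moved more. For P4 in wild type at 4 h, 88 became 29 with the arrays of that time alone, 29 without both arrays of high Gapdh ratio, 128 with the replicate block, and 41 to 138 without single arrays. For P4 in wild type at 40 h, 191 became 539 with that time alone, 386 with the replicate block and 90 to 189 without single arrays. For P4 in PRKO at 4 h, 0 became 0 to 2 without single arrays. For genotype in vehicle uteri at 4 h, 23 became 5 with that time alone, 14 without both arrays and 3 to 24 without single arrays. At 40 h, 8 became 13 with that time alone, 13 with the block and 1 to 9 without single arrays. For time in wild-type vehicle uteri, 36 became 14 with quantile normalization, 72 without further scaling, 21 without dim probe sets, 187 without both arrays and 0 to 110 without single arrays. In PRKO, 0 became 1 with quantile normalization, 2 without further scaling and 0 to 3 without single arrays. Fits to 1 time and the block were not run for the time differences, since they nest within time. At 40 h in wild type every array correlated best with its own number, but 1 pair reached only 0.0686. With the block, 4 list genes passed there by limma: Slc3a2 (−0.38, adjusted p = 0.0386), Id3 (−0.57, 0.0376), Nbl1 (−0.45, 0.0369) and Alox15 (0.42, 0.0349), against 0.187, 0.054, 0.114 and 0.18 without it. For the list genes at 4 h in wild type, the block changed the calls of Anpep and Jak2 only. The causes were not tested.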

Other observations

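Outside the P4 comparisons, 2 genes of the lists around the 4 genes passed for the time difference in wild-type vehicle uteri. Id1, an inhibitor of helix-loop-helix transcription factors and a direct target of bone morphogenetic protein signaling, had a signal of 2318 ± 241 (SD, n = 3) at 4 h and 1350 ± 74.6 at 40 h (log2 change −0.76 ± 0.13, limma adjusted p = 0.0272). Txnrd1, the cytosolic thioredoxin reductase, went from 736.8 ± 36.1 to 559.4 ± 3.75 (−0.38 ± 0.08, limma adjusted p = 0.0448). In PRKO vehicle uteri Id1 went from 2205 ± 277 to 1846 ± 70.7 and Txnrd1 from 791.4 ± 62 to 624.2 ± 4.11, and the time change did not pass there (limma adjusted p = 0.513 and 0.213). The difference between genotypes in this change was 0.52 ± 0.19 for Id1 (unadjusted p = 0.0123 by limma) and 0.05 ± 0.11 for Txnrd1, and neither passed (limma adjusted p = 1). Both calls were lost with some single arrays left out, at an adjusted p of up to 0.0887 for Id1 and up to 0.163 for Txnrd1, and Txnrd1 also with quantile normalization (adjusted p = 0.0538).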
